A study of Mus musculus with 12 samples.

Results

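Vascular endothelial growth factor (VEGF) signalling was followed through 9 genes in the retina of mice with oxygen-induced retinopathy (OIR). The genes encode 4 ligands (Vegfa, Vegfb, Vegfc and Pgf), the 3 receptor tyrosine kinases (Flt1, Kdr and Flt4) and the co-receptors Nrp1 and Nrp2. They were taken by symbol from the deposited gene table, where each symbol had 1 row, so they are 9 of 57073 gene models. All 9 passed the filter on low counts and were tested among 18275 genes. The 12 libraries came from retinas of C57BL/6 mice at postnatal day 17. In 6 of them the mice belonged to the OIR group, whose labelled treatment is 75% oxygen, and in 6 the mice were kept in normoxic air. All mice are of the same strain and age, and no allele or injected agent is given in the labels. The labels state neither the days spent in oxygen nor whether a library holds 1 retina or several, so p-values measure the spread between libraries, which may be partly technical.

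VEGF ligands are secreted dimers that bind receptor tyrosine kinases on endothelial cells. VEGF-A acts mainly through VEGFR2, the product of Kdr. The product of Flt1, VEGFR1, binds VEGF-A tightly with weak kinase activity and also exists as a soluble decoy, while placental growth factor and VEGF-B bind VEGFR1 and not VEGFR2. VEGF-C binds VEGFR3, the product of Flt4, which is best known from lymphatic vessels and is also made by sprouting blood vessel endothelium. In the OIR model, high oxygen removes retinal capillaries, and the retina left without perfusion becomes hypoxic after the return to room air. VEGF-A from glia and neurons then drives the growth of abnormal vessel tufts.

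The promoters of the ligands Vegfa and Pgf and of their receptors Flt1 and Kdr are shown because the largest ligand changes and the receptor comparison concern these genes. Each sequence runs 5′ to 3′ on the gene's strand, from 250 bases before the transcription start through the first 50 transcribed bases, in build GRCm38.p6 from RefSeq (the counts refer to build GRCm39). The windows are chr17:46032328-46032627, chr12:85177264-85177563, chr5:147725962-147726261 and chr5:75978406-75978705, in the order of the sequences, all on the minus strand. Capitals mark the hypoxia response core read as ACGTG or GCGTG on either strand.
Vegfa: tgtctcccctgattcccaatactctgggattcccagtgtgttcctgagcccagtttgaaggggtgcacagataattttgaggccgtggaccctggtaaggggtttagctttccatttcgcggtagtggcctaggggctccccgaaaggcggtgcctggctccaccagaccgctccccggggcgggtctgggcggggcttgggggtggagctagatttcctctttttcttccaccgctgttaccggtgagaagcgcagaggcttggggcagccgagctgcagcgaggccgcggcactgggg
Pgf: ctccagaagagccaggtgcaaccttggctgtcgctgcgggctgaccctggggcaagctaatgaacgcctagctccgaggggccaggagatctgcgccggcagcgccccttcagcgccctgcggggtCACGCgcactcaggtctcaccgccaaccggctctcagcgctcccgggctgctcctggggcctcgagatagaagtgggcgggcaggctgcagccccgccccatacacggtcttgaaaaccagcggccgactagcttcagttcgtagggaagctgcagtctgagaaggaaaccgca
Flt1: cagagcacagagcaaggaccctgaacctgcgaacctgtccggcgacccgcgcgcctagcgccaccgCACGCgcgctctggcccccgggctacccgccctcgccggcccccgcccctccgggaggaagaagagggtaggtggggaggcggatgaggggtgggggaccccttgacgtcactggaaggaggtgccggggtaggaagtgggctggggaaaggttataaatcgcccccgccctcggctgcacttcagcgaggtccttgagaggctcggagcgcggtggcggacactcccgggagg
Kdr: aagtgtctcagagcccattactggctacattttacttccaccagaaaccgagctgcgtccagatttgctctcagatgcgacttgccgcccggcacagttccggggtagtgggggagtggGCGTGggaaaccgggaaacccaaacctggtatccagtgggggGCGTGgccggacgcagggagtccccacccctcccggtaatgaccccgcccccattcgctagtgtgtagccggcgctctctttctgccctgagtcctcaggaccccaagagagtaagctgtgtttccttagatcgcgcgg

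Windows were found for 9 of 9 genes. Vegfa and Pgf have a second window each, and the counts use the most upstream one. GCGTG was found, on either strand, in 6 of the 9 windows, those of Vegfb, Pgf, Flt1, Kdr, Nrp1 and Nrp2, against 32.4% of all 32851 RefSeq promoter windows. ACGTG occurred in none of the 9, against 19.6% of all windows. The second window of Vegfa holds 1 of each core, and that of Pgf holds neither. Of the genes that did not pass the expression test given next, Vegfb had 2 cores and Vegfc 0. The GC box letters GGGCGG were found, on either strand, in 9 of 9 windows against 35.7% of all windows. Their GC content was 60.7% to 75.3%, against a median of 52.7% over all windows. TATAAA occurred only in that of Flt1 among the 9, against 13.6% of all. These letter matches do not show that a factor bound there, and sequence outside the windows was not searched.

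Of the 9 genes, 7 were higher in OIR and 0 lower by edgeR's quasi-likelihood test (adjusted p below 0.05 with Benjamini-Hochberg adjustment over all genes), whereas Vegfb and Vegfc did not pass. DESeq2 gave the same counts, and the unadjusted edgeR p was 0.308 for Vegfb and 0.201 for Vegfc. Among all genes tested, 16.2% were higher, 14.8% lower and 31% changed in either direction. The median log2 fold change was 0.61 over the 9 genes and -0.01 over all genes tested. In 5 of the 9 genes every OIR library was above every normoxic library, and in 0 below, compared with 9.12% above and 7.31% below among all genes. Within replicates 1 to 3 alone, 7 of the 9 were higher and 1 lower, where 20.3% of all genes were higher and 18.6% lower (39% in either direction). Within replicates 4 to 6 alone, 5 were higher and 0 lower, where 11.6% of all genes were higher and 8.36% lower (20% in either direction). In bulk retina, more cells of a type and more RNA per cell cannot be told apart.

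**Figure D1:**
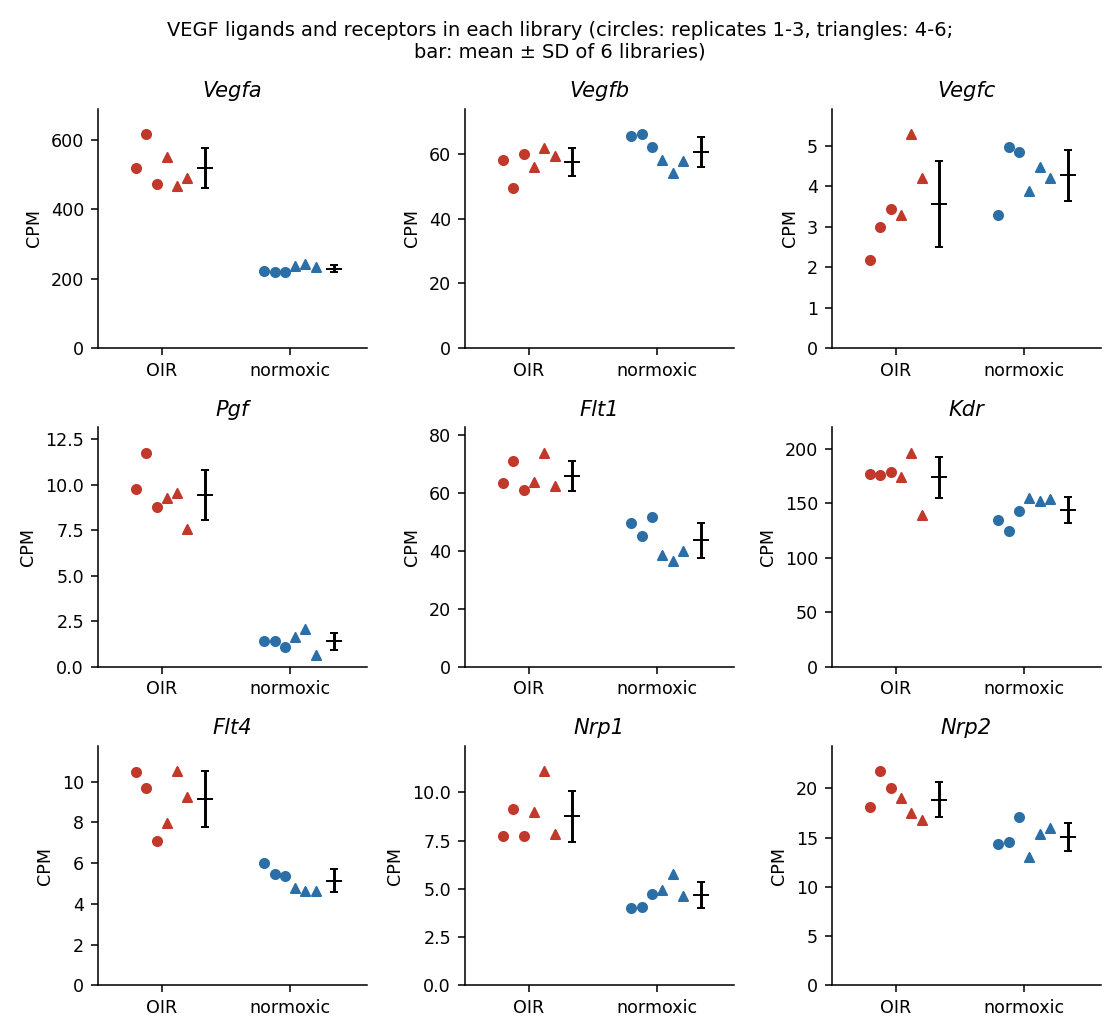
Depth-scaled counts (CPM, y axis from 0) of the 9 genes in each of the 12 libraries, OIR in red and normoxic in blue, with circles for replicates 1 to 3, triangles for replicates 4 to 6 and a bar for the mean ± SD of 6 libraries. The groups are apart for Vegfa, Pgf, Flt1, Flt4 and Nrp1 and overlap for the others.

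Libraries had 17366045 to 21594618 counts in the OIR group and 17361979 to 19390627 in the normoxic group. The 8 rod markers, which check the tissue label (1 higher, 1 lower), summed to 42810 to 46580 CPM in OIR and 39600 to 43870 CPM in normoxic libraries. Normoxic replicates 1 to 3 stood apart from normoxic replicates 4 to 6 on the second principal component (16.3 to 19.8 against -23.7 to -16.7). OIR replicates 1 to 3 also lay above OIR replicates 4 to 6 there, at smaller distances (5.44 to 6.23 against -5.79 to 1.44). On the third component OIR replicate 6 had the value -29.6, against -2.04 to 9.46 for the other libraries. The labels name no batch, so effects are also given within replicates 1 to 3 and within replicates 4 to 6.

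Among the ligands, Vegfa, the main hypoxia-induced growth factor of endothelium (ENSMUSG00000023951, chromosome 17, 46327919 to 46343295 in GRCm39), ran from 467 to 616 CPM in OIR libraries (median 505). In normoxic libraries it ran from 219 to 242 CPM (median 228). The lowest OIR library lay far above the highest normoxic one. Vegfa had a log2 fold change of 1.19 ± 0.06 (SE, n = 6 in each group; edgeR adjusted p = 9.75e-11). It was the gene with the 32nd smallest p among all tested. The effect was 1.28 ± 0.07 within replicates 1 to 3 and 1.10 ± 0.06 within replicates 4 to 6. Gene counts do not separate the splice forms of Vegfa, which differ in how tightly the protein binds heparan sulfate.

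Pgf, which encodes placental growth factor (ENSMUSG00000004791, chromosome 12, 85213409 to 85224564), had the largest fold change of the 9. It had 137 to 204 counts per OIR library and 12 to 37 counts per normoxic library. This corresponded to 7.56 to 11.7 CPM in OIR (median 9.39) and 0.654 to 2.06 CPM in normoxic libraries (median 1.43). Every OIR library lay above every normoxic one. The log2 fold change was 2.77 ± 0.19 (SE), 6.80-fold, with an edgeR adjusted p of 5.61e-09. It was 2.92 ± 0.21 within replicates 1 to 3 and 2.61 ± 0.28 within replicates 4 to 6. On the log2(FPKM + 1) scale, where FPKM is fragments scaled to gene length and library depth, the change was 1.52, since adding 1 compresses low values.

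Vegfb, a ligand of VEGFR1 linked to lipid handling and cell survival (ENSMUSG00000024962, chromosome 19, 6959841 to 6965019), ran from 49.7 to 61.9 CPM in OIR and from 54.3 to 66.3 CPM in normoxic libraries. Its log2 fold change was -0.07 ± 0.06 (SE, edgeR adjusted p = 0.47), with a 95% interval of -0.21 to 0.08. Within replicates 1 to 3 it was lower in OIR (-0.21, adjusted p = 0.0219), and within replicates 4 to 6 the value was 0.08 (adjusted p = 0.459). Vegfc, the lymphangiogenic ligand (ENSMUSG00000031520, chromosome 8, 54530641 to 54640131), had 39 to 92 counts per OIR library and 62 to 91 per normoxic library. Its log2 fold change was -0.25 ± 0.19 (SE, edgeR adjusted p = 0.348), with a 95% interval of -0.67 to 0.17. The replicate sets gave -0.59 (adjusted p = 0.0549) for 1 to 3 and 0.05 (adjusted p = 0.915) for 4 to 6. At these counts a moderate decrease of Vegfc lies inside the interval.

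Per gene length, Vegfa was the most abundant of the 9 in both groups. It averaged 121 ± 13.2 FPKM in OIR and 53.4 ± 2.21 FPKM in normoxic libraries (SD, n = 6 each). Vegfb followed at 35.9 ± 2.71 FPKM in OIR and 37.9 ± 2.96 FPKM in normoxic libraries (SD, n = 6 each). Vegfa thus made up 71.2% to 79.9% of the summed FPKM of the 4 ligands in OIR and 53.8% to 60.8% in normoxic libraries. Vegfb made up 17.2% to 25.2% in OIR against 36.5% to 43.5% in normoxic libraries, although its own level did not pass the test. Pgf contributed 1.67% to 2.25% in OIR and 0.243% to 0.765% in normoxic libraries, so its large fold change started from a small share. Vegfd, a further VEGFR3 ligand that is no member of the set, was too low to test, with 37 counts summed over the OIR libraries and 42 over the normoxic libraries.

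**Figure D2:**
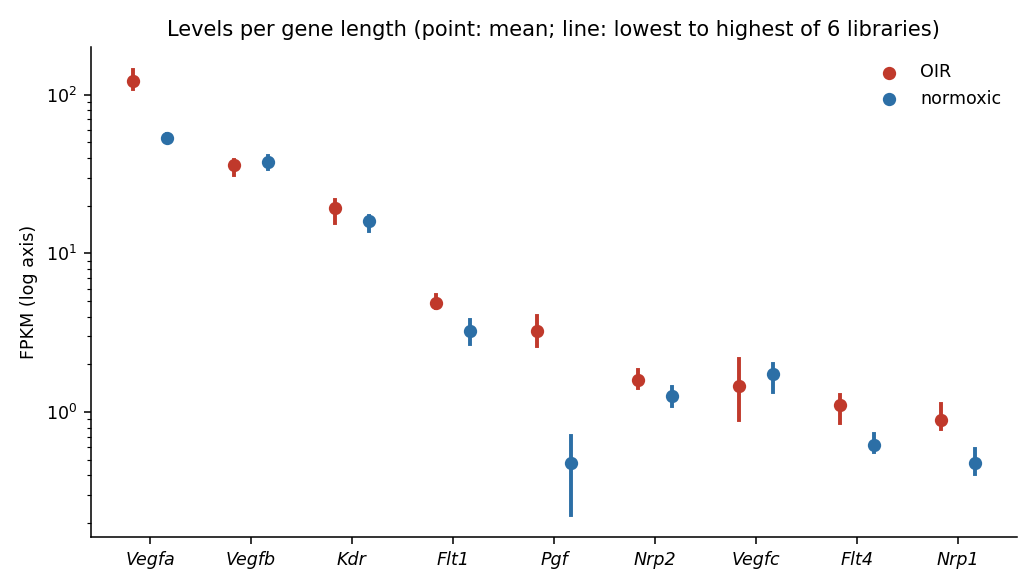
Levels of the 9 genes in FPKM on a log axis, ordered by the OIR mean, with OIR in red left of normoxic in blue, a point for the mean and a line from the lowest to the highest of 6 libraries. Pgf is the gene that moves most in the order, with means of 3.25 FPKM in OIR and 0.477 FPKM in normoxic libraries.

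Among the receptors, Kdr (ENSMUSG00000062960, chromosome 5, 76093487 to 76139118) was the most abundant, at 15.4 to 21.7 FPKM in OIR and 13.8 to 17.1 FPKM in normoxic libraries. Flt1 (ENSMUSG00000029648, chromosome 5, 147498414 to 147662821) had 4.51 to 5.47 FPKM in OIR and 2.69 to 3.82 FPKM in normoxic libraries. Flt4 (ENSMUSG00000020357, chromosome 11, 49500090 to 49543566) had 0.861 to 1.28 FPKM in OIR and 0.562 to 0.729 FPKM in normoxic libraries. The 3 ranges did not overlap within either group, so the order Kdr, Flt1, Flt4 held in every library. Lower in the order, FPKM ranges overlapped in OIR between Nrp2 and Vegfc, between Vegfc and Flt4 and between Flt4 and Nrp1. In normoxic libraries they overlapped between Vegfc and Nrp2, between Flt4 and Nrp1 and between Nrp1 and Pgf.

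By point estimate the fold changes ran the other way, from Flt4 to Flt1 to Kdr. Flt4 had 7.09 to 10.5 CPM in OIR (median 9.47) and 4.63 to 6.00 CPM in normoxic libraries (median 5.08), without overlap. Its log2 fold change was 0.84 ± 0.13 (SE, edgeR adjusted p = 4.77e-05), a 1.79-fold difference. The replicate sets gave 0.69 ± 0.17 for 1 to 3 and 1.00 ± 0.17 for 4 to 6, and the change was 0.38 on the log2(FPKM + 1) scale. Flt4 is known as a gene of tip cells, the leading cells of a sprout.

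Flt1 had 60.9 to 73.8 CPM in OIR (median 63.6) and 36.3 to 51.5 CPM in normoxic libraries (median 42.7), also without overlap. Its log2 fold change was 0.61 ± 0.08 (SE, edgeR adjusted p = 1.71e-05), a 1.52-fold difference. Gene counts do not separate the membrane receptor from the soluble decoy. The Flt1 effect differed between the replicate sets, with 0.41 ± 0.07 for 1 to 3 and 0.82 ± 0.08 for 4 to 6. The interaction was 0.40 ± 0.11 (SE, edgeR adjusted p = 0.0219 over all genes), and 8.21% of all genes passed that test, 4.21% with a positive and 4% with a negative difference. The sets parted in the normoxic group, at 45.3 to 51.5 CPM in normoxic replicates 1 to 3 and 36.3 to 40.1 CPM in normoxic replicates 4 to 6, whereas the OIR replicates of both sets overlapped.

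Kdr had 139 to 196 CPM in OIR (median 176) and 125 to 155 CPM in normoxic libraries (median 148). Of the OIR libraries, replicate 6 at 139 CPM lay inside the normoxic range and the other 5 lay above it. Kdr had a log2 fold change of 0.28 ± 0.07 (SE, edgeR adjusted p = 0.00455), a 1.21-fold difference, and 0.33 without OIR replicate 6 (adjusted p = 3.49e-04). It was 0.40 ± 0.05 (adjusted p = 1.84e-06) within replicates 1 to 3. Within replicates 4 to 6 it was 0.16 ± 0.08 and did not pass (adjusted p = 0.193). Normoxic Kdr had 125 to 143 CPM in replicates 1 to 3 and 152 to 155 CPM in replicates 4 to 6, whereas the OIR sets overlapped. The difference of the Kdr effect between the sets did not pass (edgeR interaction test, adjusted p = 0.18).

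**Figure D3:**
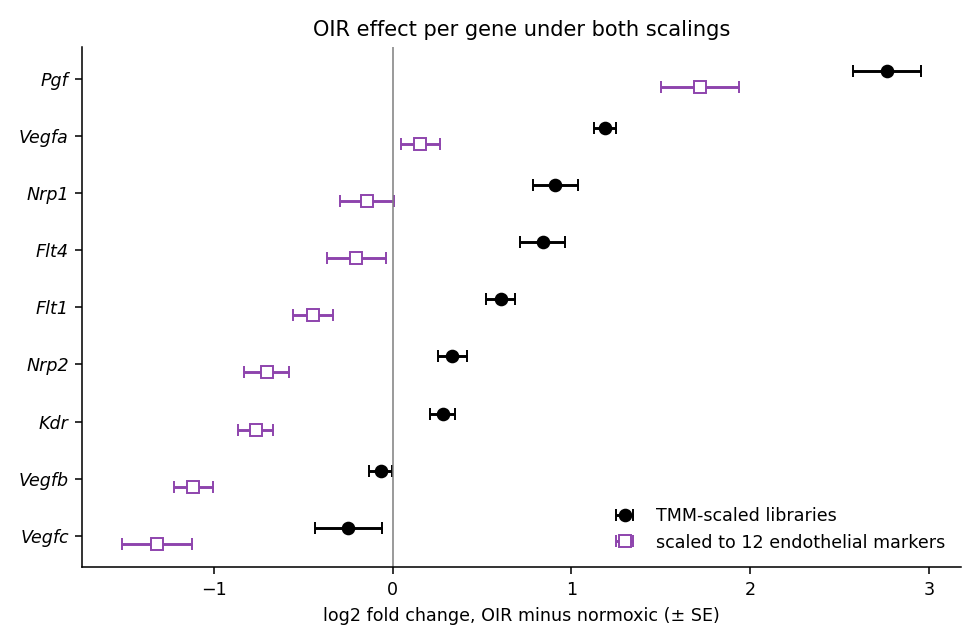
Log2 fold changes of the 9 genes, OIR minus normoxic, with error bars of 1 SE, for libraries scaled by TMM (filled circles) and for libraries scaled to the summed counts of 12 endothelial markers (open squares). With TMM scaling 7 genes are above 0 past the threshold, where 16.2% of all genes were higher and 14.8% lower. Relative to the endothelial markers Pgf alone is higher past the threshold and 5 genes are lower, where 2.4% of all genes were higher and 90% lower.

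The co-receptors differed in size of change. Nrp1 (ENSMUSG00000025810, chromosome 8, 129085085 to 129229844), which binds VEGF-A and semaphorin 3A, had 138 to 193 counts per OIR library and 74 to 103 per normoxic library. In CPM these were 7.72 to 11.1 in OIR (median 8.41) and 3.98 to 5.74 in normoxic libraries (median 4.68), with no overlap. The log2 fold change was 0.91 ± 0.13 (SE, edgeR adjusted p = 2.42e-05), with 0.95 and 0.88 within the first and second sets of replicates. Nrp2 (ENSMUSG00000025969, chromosome 1, 62742444 to 62857854), which binds VEGF-C and semaphorin 3F, had 16.8 to 21.7 CPM in OIR (median 18.6) and 13.05 to 17.05 CPM in normoxic libraries (median 14.9). Its log2 fold change was 0.33 ± 0.08 (SE, edgeR adjusted p = 0.00416), and 0.36 without OIR replicate 6, the only OIR library inside the normoxic range. On the log2(FPKM + 1) scale it was 0.19. Within replicates 4 to 6 the value was 0.28 and did not pass (adjusted p = 0.0998). Across the 12 libraries, the pairs of genes nearest in pattern were Flt1 with Flt4 and Kdr with Nrp2. After centring each gene on its mean log2 CPM, they lay at root mean square distances of 0.16 log2 units each.

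The balance of ligand and receptors was compared as ratios of FPKM within a library, in which depth cancels. The ratio of Vegfa to Kdr was 5.01 to 7.42 in OIR (median 6.42) and 3.20 to 3.70 in normoxic libraries (median 3.30), so the groups did not overlap. The difference of the mean log2 ratio was 0.91 (two-sided exact permutation, p = 0.00216, the lowest value that 6 against 6 libraries allow, adjusted p = 0.00648 over 3 ratios). It was 0.87 within replicates 1 to 3 and 0.95 within replicates 4 to 6. For Vegfa to Flt1 the ratio was 19.9 to 27.4 in OIR and 13.5 to 21.0 in normoxic libraries, with a log2 difference of 0.57 (exact permutation test, p = 0.00433, adjusted p = 0.00649). That difference was 0.86 within replicates 1 to 3 and 0.29 within replicates 4 to 6, where OIR libraries at 19.9 to 27.1 overlapped normoxic libraries at 18.4 to 21.0. Sets of 3 against 3 allow no p below 0.1.

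The ratio of Flt1 to Kdr, over all transcripts of each gene, was 0.228 to 0.299 in OIR and 0.160 to 0.246 in normoxic libraries. The log2 difference was 0.34 (exact permutation test, p = 0.0476, adjusted p = 0.0476). It was not seen within replicates 1 to 3, where OIR libraries had 0.228 to 0.269 and normoxic libraries 0.241 to 0.246 (log2 difference 0.01). Within replicates 4 to 6, OIR libraries had 0.245 to 0.299 and normoxic libraries 0.160 to 0.174 (log2 difference 0.66). The pooled difference did not pass when any of 8 of the 12 libraries was left out (adjusted p up to 0.0996).

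**Figure D4:**
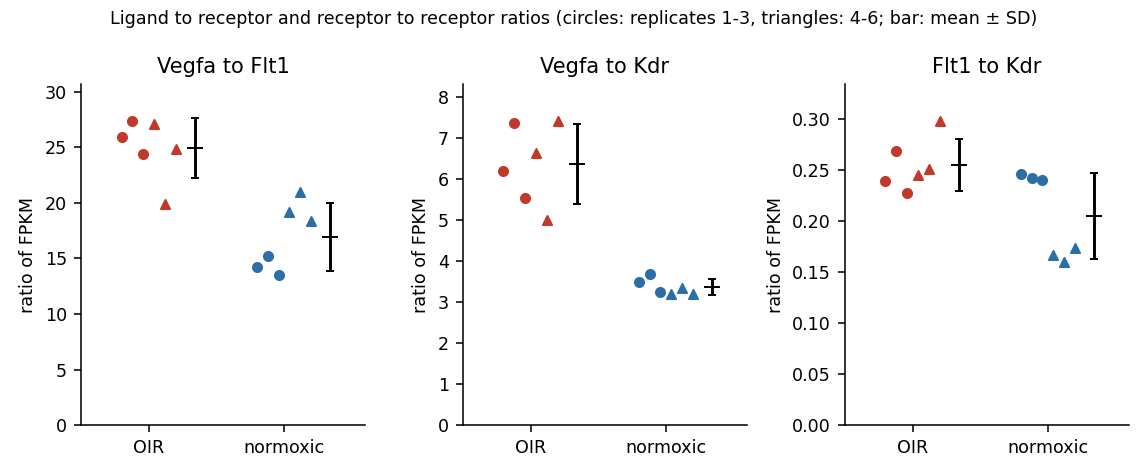
Ratios of FPKM for Vegfa to Flt1, Vegfa to Kdr and Flt1 to Kdr in each library (y axes from 0), OIR left of normoxic, with circles for replicates 1 to 3, triangles for replicates 4 to 6 and a bar for the mean ± SD. Vegfa to Kdr separates the groups, while in Flt1 to Kdr the normoxic replicates 4 to 6 (0.160 to 0.174) sit apart from all others.

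Markers of several cell types differed between the groups, some higher and some lower in OIR. Their counts stand against 16.2% of all genes higher and 14.8% lower. Of 12 endothelial markers without any of the 9 genes, such as Pecam1 and Cdh5, 11 were higher and 0 lower, with a median log2 fold change of 1.41. Their summed level was 300 to 422 CPM in OIR and 157 to 190 CPM in normoxic libraries. All 8 pericyte and mural cell markers were higher (455 to 674 CPM summed in OIR and 170.4 to 226.5 CPM in normoxic libraries), and 6 of 6 astrocyte markers (235 to 403 CPM in OIR and 50.2 to 70.5 CPM in normoxic libraries). Most of the astrocyte sum in OIR came from Gfap, with a mean of 224 CPM in OIR and 16.4 CPM in normoxic libraries. The astrocyte log2 fold changes ran from 0.375 for Agt to 3.77 for Gfap. Microglia and macrophage markers were higher in 8 of 10 (139 to 201 CPM in OIR and 61.1 to 73.6 CPM in normoxic libraries). Of 10 Muller glia markers 2 were higher and 4 lower (4423 to 5420 CPM in OIR and 4483 to 5475 CPM in normoxic libraries), and of 8 ganglion cell markers 4 were lower (646 to 853 CPM in OIR and 875 to 1181 CPM in normoxic libraries). Red cell markers were higher in 4 of 4 (112 to 237 CPM in OIR and 55.6 to 134 CPM in normoxic libraries). Of 6 tested pigment epithelium markers 0 passed (36.7 to 80.5 CPM in OIR and 13.8 to 87.3 CPM in normoxic libraries), and of 7 lens markers 4 were lower (1.27 to 14.9 CPM in OIR and 6.00 to 53.1 CPM in normoxic libraries). The lens marker Lim2 was at 0 in all libraries. Both lists gave other counts within the replicate sets. The interaction test over all genes included their tested markers, but its results for single markers are not given here. Within replicates 1 to 3, 4 pigment epithelium markers were higher and 0 lower (median log2 fold change 1.41, with Ttr at 2.33, edgeR adjusted p = 6.42e-12, and Rpe65 at 1.87, adjusted p = 1.89e-05). In replicates 4 to 6, 0 were higher and 1 lower (median -0.45). Of the lens markers, 5 were lower within replicates 1 to 3 (median -3.35) and 0 were called within replicates 4 to 6 (median -0.70). Among all genes, 20.3% were higher and 18.6% lower within replicates 1 to 3, and 11.6% and 8.36% within replicates 4 to 6. The part of cell composition in the VEGF gene changes was not tested beyond the endothelial scaling that follows.

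Relative to the 12 endothelial markers, 1 of the 9 genes was higher in OIR, 5 were lower and 3 did not pass. With this scaling 2.4% of all genes were higher and 90% lower (92.4% in either direction), and the median log2 fold change of all genes was -1.05. Pgf remained higher, with a log2 fold change of 1.72 ± 0.22 (SE, edgeR adjusted p = 7.87e-09). Kdr was equivalent to 44.4% to 58.8% of the summed endothelial marker CPM in OIR and 79.4% to 94.6% in normoxic libraries, a log2 fold change of -0.77 ± 0.10 (SE, edgeR adjusted p = 9.7e-09). Flt1 had -0.45 ± 0.11 (SE, edgeR adjusted p = 4.7e-04), which did not pass within replicates 4 to 6 (-0.29, adjusted p = 0.113), and Nrp2 -0.70 ± 0.13 (SE, adjusted p = 4.26e-06). Vegfb (-1.11 ± 0.11) and Vegfc (-1.32 ± 0.19, each SE) were also lower, with edgeR adjusted p of 4.54e-11 and 1.41e-07. Their values stand beside the median of -1.05 over all genes. The summed endothelial marker RNA thus rose more than the RNA of Kdr, Flt1 and Nrp2 in the same libraries, which does not hold for each marker. With TMM scaling the log2 fold changes of the markers ran from 0.27 for Tek to 2.07 for Ecscr. Tek did not pass (edgeR adjusted p = 0.103), and Esam, at 0.50, also lay below Flt1. Bulk counts do not show which cells made the RNA of the 9 genes, so the endothelial scaling gives no level per endothelial cell. Flt4 (-0.20 ± 0.16), Nrp1 (-0.14 ± 0.15) and Vegfa (0.15 ± 0.11, each SE) did not pass, with adjusted p of 0.235, 0.361 and 0.171. Vegfa did pass within replicates 1 to 3 (0.29, adjusted p = 0.00146) and without OIR replicate 5 (0.23, adjusted p = 0.0217). Flt4 and Nrp1 were called lower when the markers entered as a geometric mean (adjusted p = 0.0129 and 0.0207).

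Flt4 is also a lymphatic gene, so lymphatic endothelial markers were examined. Mmrn1 had 24 counts summed over the OIR libraries and 7 over the normoxic ones, below the filter. Lyve1, also made by macrophages, had 12.8 to 17.6 CPM in OIR and 16.3 to 24.1 CPM in normoxic libraries, and its log2 fold change was -0.36 (edgeR adjusted p = 0.0102). Of the 4 tested markers, Lyve1, Prox1 and Reln were lower and Pdpn higher, and Prox1, Reln and Pdpn are also made by retinal neurons or glia. Their sum was 316 to 336 CPM in OIR and 343 to 373 CPM in normoxic libraries.

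Other genes of the pathway were counted in 6 lists, which were chosen with earlier results of these data known. Of 114 tested genes outside the 9, 53 were higher, 8 lower and the rest did not pass. Among all genes tested 16.2% were higher and 14.8% lower, 31% in either direction, and each list's counts stand against these shares.

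**Figure D5:**
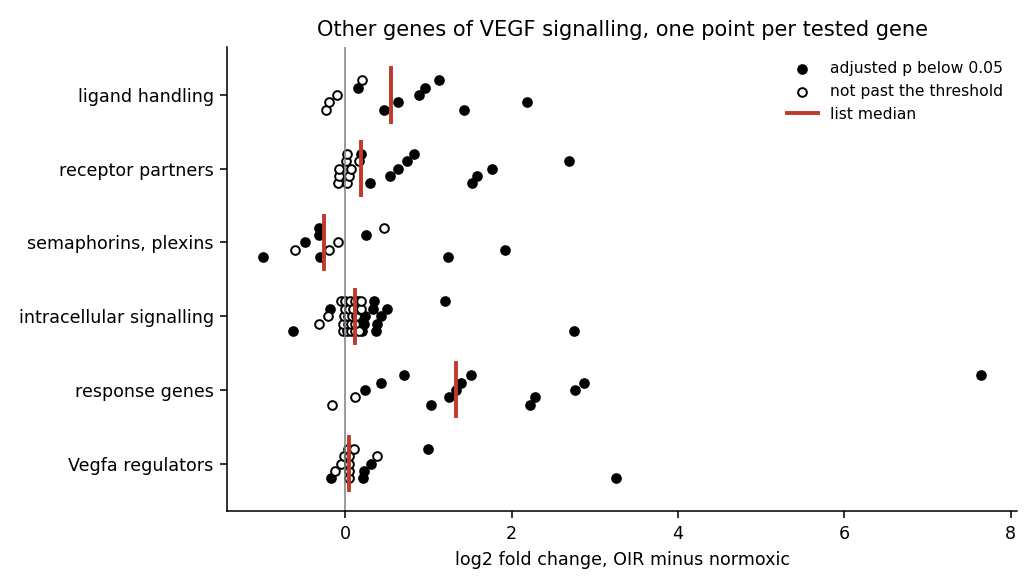
Log2 fold changes, OIR minus normoxic, of the tested genes of 6 VEGF pathway lists, 1 point per gene, filled where the adjusted p was below 0.05, with a red line at the list median. Response genes have the highest median (1.33), and intracellular signalling genes have a median of 0.11.

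Genes reported as induced by VEGF in endothelium were higher in 13 of 15 tested members and lower in 0, with a median log2 fold change of 1.33, against -0.01 for all genes. Esm1, which encodes the tip cell proteoglycan endocan, had 1145 counts summed over the OIR libraries and 5 over the normoxic libraries (edgeR adjusted p = 2.49e-11). Angpt2, which encodes a destabilising ligand of the Tie2 receptor, had 29.7 ± 4.72 CPM in OIR and 6.14 ± 1.30 CPM in normoxic libraries (SD, n = 6 each, edgeR adjusted p = 8.93e-10). Plat, the tissue plasminogen activator gene, had 46.3 ± 5.03 CPM in OIR and 16.3 ± 2.60 CPM in normoxic libraries (edgeR adjusted p = 1.27e-09). The median of the 12 endothelial markers was 1.41. Relative to them, 7 of the 15 response genes were higher, 4 lower and 4 did not pass, with a median of 0.31. In that scaling the 12 markers themselves had 7 higher, 3 lower and 2 that did not pass (median 0.36). Among all genes 2.4% were then higher and 90% lower. Response genes that did not pass in that scaling included Nr4a1 (0.0046, adjusted p = 0.972), Unc5b (0.18, adjusted p = 0.128) and Egr3 (0.31, adjusted p = 0.326). With TMM scaling, Nr4a2 and the endothelial nitric oxide synthase gene Nos3 did not pass (log2 fold changes of -0.16 and 0.12).

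Genes that hold or process the ligand were higher in 8 of 12 tested members and lower in 0 (median 0.55). Hspg2, which encodes the heparan sulfate proteoglycan perlecan, was 4.54-fold higher, with 43.4 to 59.1 CPM in OIR and 9.68 to 15.4 CPM in normoxic libraries (edgeR adjusted p = 7.23e-11). Sparc, a matricellular protein gene whose product binds VEGF, was 1.94-fold higher and the lysosomal protease gene Ctsd 1.56-fold higher (edgeR adjusted p = 5.76e-09 and 1.51e-08). Receptor partners were higher in 10 of 19 and lower in 0 (median 0.19). These included Cdh5, the VE-cadherin gene that is also among the endothelial markers (3.4-fold), Eng, which encodes the TGF-beta co-receptor endoglin (2.88-fold), and the integrin gene Itgav (1.77-fold), with edgeR adjusted p of 2.07e-09, 2.38e-09 and 2.07e-07.

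Neuropilins also serve class 3 semaphorins, and these genes went both ways, with 3 higher, 5 lower and 4 that did not pass (median -0.25). Plxnd1, the endothelial plexin gene, had 48.6 to 65.9 CPM in OIR and 12.4 to 18.6 CPM in normoxic libraries, a 3.79-fold difference (edgeR adjusted p = 5.81e-11). Sema3b was 2.35-fold higher (edgeR adjusted p = 3.59e-09). Sema3c had a log2 fold change of -0.99 ± 0.22 (SE, edgeR adjusted p = 0.00227), with -0.55 within replicates 1 to 3 (adjusted p = 0.105) and -1.29 within replicates 4 to 6 (adjusted p = 5.2e-04). The remaining higher gene, Plxna2, had a log2 fold change of 0.25 (adjusted p = 0.0202) and did not pass within replicates 4 to 6 (adjusted p = 0.388).

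Intracellular signalling genes were higher in 14 of 41 and lower in 2, with a median log2 fold change of 0.11. Mapkapk2, a kinase gene of the p38 branch, was 1.42-fold higher, and Pxn, which encodes the focal adhesion adaptor paxillin, was 1.29-fold higher (edgeR adjusted p = 2.75e-07 and 5.86e-06). Lower were the protein kinase C genes Prkcb, with 67.6 to 88.0 CPM in OIR and 106 to 132 CPM in normoxic libraries (edgeR adjusted p = 1.1e-06), and Prkca, with a log2 fold change of -0.19 (edgeR adjusted p = 0.012), which did not pass within replicates 4 to 6 (adjusted p = 0.175). Prkca is also a marker of rod bipolar cells.

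Regulators of Vegfa RNA were higher in 5 of 16 and lower in 1 (median 0.05). Egln3 and Egln1, which encode oxygen-sensing prolyl hydroxylases that are themselves induced by hypoxia, were 9.57-fold and 1.99-fold higher (edgeR adjusted p = 3.77e-12 and 9.23e-10). Vhl, the gene of the ubiquitin ligase subunit that removes hypoxia-inducible factors, was 1.24-fold higher (edgeR adjusted p = 4.95e-05). Esrra, the estrogen-related receptor alpha gene, had a log2 fold change of -0.17 (adjusted p = 0.0276) and did not pass within replicates 4 to 6 (adjusted p = 0.428). Hif1a, named after its value was seen, had a log2 fold change of -0.01 and did not pass. Of the other listed subunit genes of hypoxia-inducible factors, named in the same way, Epas1 was higher (0.22, edgeR adjusted p = 0.00426). Epas1 did not pass within replicates 1 to 3 (0.11, adjusted p = 0.0772), and Hif3a, Arnt and Arnt2 did not pass with all libraries.

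For each of the 7 genes that passed, the 2 genes nearest in centred log2 CPM over the 12 libraries were found among 16773 other tested genes with a mean of at least 1 CPM. Vegfa lay nearest to the actin-severing gelsolin gene Gsn (root mean square distance 0.07 log2 units) and the chloride channel family gene Clic4 (0.09). Pgf lay nearest to the actin-capping protein gene Capg (0.22) and the collagen receptor gene Mrc2 (0.24), at larger distances than the other members. Flt1 lay nearest to Uaca (0.10) and the endothelial adhesion gene Esam (0.11), and Flt4 to 2900026A02Rik (0.13) and Uaca (0.14). Kdr lay nearest to the glycosyltransferase gene Mgat2 and the glucocorticoid receptor gene Nr3c1 (each 0.07), Nrp1 to Pmp22 and the amino acid transporter gene Slc7a5 (each 0.10), and Nrp2 to Arhgef40 (0.07) and the G protein subunit gene Gna13 (0.08). These distances include the difference between the groups and describe likeness over these libraries alone.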

How the data were processed

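The 12 retina libraries were made from TRIzol-extracted RNA by poly-A selection, per the labels' protocols. The submitters' processing notes list GRCm39 as build and, as tools, HTSeq, Trimmomatic and HISAT2 (version 2.0.5). No source used here gives the annotation release or strand setting. Per the file headers, the deposited table holds whole-number counts and FPKM for each gene. The 9 genes and all lists were chosen with earlier results of these data known. The main test was edgeR (version 4.0.16, R version 4.3.3) on the counts, with filterByExpr (minimum count 10, total 15), TMM, quasi-likelihood test, Benjamini-Hochberg adjustment over all genes, threshold 0.05, and 95% intervals from the SE with 10 degrees of freedom. Levels are CPM of library totals. For the endothelial scaling, summed counts of 12 markers replaced TMM. Named from each list were the 3 genes with the smallest adjusted p among those that passed, and those in the rarer direction if at most 3; other genes were chosen after their values were seen. Patterns used log2(CPM + 0.5). Alternatives used DESeq2 version 1.42.0 and limma version 3.58.1. No library was a copy of another of its group (chi-square of their counts 3.05 to 15.4 times its degrees of freedom). Ratios, planned on counts, are given in FPKM, which leaves their log2 differences as they were. The main test was tried on simulated data without a difference between replicate sets. The endothelial scaling, the interaction and the fits within replicate sets were not simulated. Total counts of 17361979 to 21594618 per library limit the precision for genes with few counts, such as Vegfc.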

Additional observations from a re-analysis of the deposited data

Results flagged for a closer look

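The OIR effect on Flt1 differed between replicate sets. It was larger in replicates 4 to 6 than in replicates 1 to 3 by 0.404 log2 units (SE 0.11, edgeR interaction test, adjusted p = 0.0219 over all genes). Flt1 was higher in OIR within both sets, by 0.41 in replicates 1 to 3 and 0.82 in replicates 4 to 6. The other 8 genes did not pass this test (adjusted p from 0.0775 for Vegfb to 0.909 for Nrp1). The labels do not say what distinguishes the sets, and the cause was not tested. In a search of 26 groups of 6 values (the 9 genes, 3 ratios and the endothelial sum, in each group) 0 had a library beyond Dixon's 95% limit.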

How the results depend on the processing

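Over 24 alternatives (other scalings, filters, dispersion, tools, replicate subsets and each library left out), 5 to 7 of the 9 genes were called higher. Within replicates 1 to 3, 1 was called lower (Vegfb). Within replicates 4 to 6, Vegfb (0.081) and Vegfc (0.048) changed sign without passing, Kdr and Nrp2 lost their calls, and 1536 genes in all were called lower, against 2704 with all libraries. A mean FPKM of at least 1 left Nrp1 untested. With each library left out, the counts for the 9 genes were 7 higher and 0 lower, all genes called higher ranged from 2688 to 3084 and lower from 2372 to 2786, and pathway genes called higher ranged from 47 to 52 and lower from 7 to 10.

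Relative to endothelial markers, 2 genes were called higher within replicates 1 to 3, where Vegfa joined Pgf (0.29, adjusted p = 0.00146). Vegfa also passed without OIR replicate 5 (0.23, adjusted p = 0.0217), so the count ranged from 1 to 2 with a library left out, while that of lower genes was 5 each time. Vegfa changed sign with the geometric mean of the markers (-0.078, adjusted p = 0.485). Within replicates 4 to 6 Flt1 lost its call (-0.29, adjusted p = 0.113).

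The ratio differences within replicates 1 to 3 were 0.86 for Vegfa to Flt1, 0.87 for Vegfa to Kdr and 0.0092 for Flt1 to Kdr, and within replicates 4 to 6 they were 0.29, 0.95 and 0.66. None passed there, since 3 against 3 libraries cannot. With a library left out, they ranged from 0.51 to 0.64, 0.86 to 0.97 and 0.27 to 0.39, and Flt1 to Kdr lost its call without normoxic replicate 4, 5 or 6 or any OIR replicate except 3.

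Same-numbered libraries had correlations of deviations from the group means of -0.03 to 0.14, so the numbers were not taken as pairs, and 4 of 12 libraries correlated best with their own number. With a replicate block, 7 genes were called higher and 0 lower, and 2992 and 2683 of all genes. Under a replicate block of 6 pairs, the ratio differences were 0.57, 0.91 and 0.34. By the exact sign-flip test they did not pass, with adjusted p of 0.0938, 0.0938 and 0.125, where 6 pairs allow no p below 0.0312. Vegfa to Kdr was higher in OIR in every pair, which puts its unadjusted p at that limit. Vegfa to Flt1 was lower in OIR in pair 5 (19.9 against 21.0), and Flt1 to Kdr was lower in pairs 1 and 3. The cause of these differences between settings was not tested.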
